A study of Homo sapiens with 6 samples.

Results

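The GC-rich distal non-coding peaks are the ATAC-seq peaks on chromosomes 1 to 22 in which at least 60% of the bases are G or C, whose centre lies more than 3 kb from every start site of protein-coding and long non-coding transcripts in GENCODE v44, and which hold no coding base. They numbered 5114 of the 152800 peaks in the atlas, or 3.35%, and each was 502 bp wide. The rule used sequence and position, and no read count. ATAC-seq counts the insertions of the Tn5 transposase, so that the count in a peak rises with the accessibility of its DNA. A375, an established line of human melanoma cells, was studied with an empty vector (3 libraries) and as HMGB2OE (3 libraries). The HMGB2OE line was made by lentiviral transduction to overexpress HMGB2 stably. The question was whether accessibility differs between these cells. The 3 libraries of a condition are described as technical replicates of an experiment that was not repeated, so the p-values below measure only the spread between these libraries.

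Distal non-coding DNA holds enhancers, insulators and promoters that the annotation does not list. Most of the human genome is poor in G and C and poorer still in the CpG dinucleotide, because methylated cytosine is prone to mutate. CpG islands escape this loss, and they usually lie at promoters, although some lie far from any annotated start. Other GC-rich stretches are short on CpG, and others again are tandem arrays or copies of mobile elements. HMGB2 is an abundant chromatin protein whose HMG boxes bind the minor groove of DNA and bend it with little preference for sequence.

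CpG-poor and CpG-rich sequence could both be read in the peaks themselves. The central 300 bases are shown for 4 of the peaks with the largest rises and falls, all of unique sequence, and for the member with the highest count, which was added after its value was seen. All are on the plus strand of hg38, in lower case, with capitals marking each match to the 11 transcription factor words described further on. The rising peak in an intron of ZMIZ1 (chr10:79266680-79266979) held 1 AP-1 word and 2 TEAD words:
ZMIZ1 intron, higher: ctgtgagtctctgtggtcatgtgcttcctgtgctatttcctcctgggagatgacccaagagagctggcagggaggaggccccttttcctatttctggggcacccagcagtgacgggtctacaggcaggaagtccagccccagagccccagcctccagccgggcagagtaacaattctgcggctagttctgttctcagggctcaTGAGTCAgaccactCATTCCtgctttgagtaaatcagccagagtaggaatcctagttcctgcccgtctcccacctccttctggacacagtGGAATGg
The rising peak in a long non-coding gene with JARID2 as the nearest protein-coding start (chr6:14804686-14804985) held 1 SP and KLF word:
JARID2, higher: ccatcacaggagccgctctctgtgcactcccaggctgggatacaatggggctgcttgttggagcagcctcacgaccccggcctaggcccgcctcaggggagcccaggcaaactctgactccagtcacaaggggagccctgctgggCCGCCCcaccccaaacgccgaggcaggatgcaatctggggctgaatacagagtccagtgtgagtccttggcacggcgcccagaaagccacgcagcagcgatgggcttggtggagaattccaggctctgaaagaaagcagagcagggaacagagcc
The falling peaks in an intron of ABHD12 (chr20:25328927-25329226) and near C1orf127 (chr1:10899979-10900278) held 1 E-box and no match, respectively:
ABHD12 intron, lower: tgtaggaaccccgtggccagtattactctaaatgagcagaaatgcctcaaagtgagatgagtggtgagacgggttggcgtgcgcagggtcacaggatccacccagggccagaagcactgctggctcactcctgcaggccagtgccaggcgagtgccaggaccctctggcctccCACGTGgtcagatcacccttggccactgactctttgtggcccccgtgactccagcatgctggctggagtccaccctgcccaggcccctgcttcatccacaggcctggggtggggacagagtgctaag
C1orf127, lower: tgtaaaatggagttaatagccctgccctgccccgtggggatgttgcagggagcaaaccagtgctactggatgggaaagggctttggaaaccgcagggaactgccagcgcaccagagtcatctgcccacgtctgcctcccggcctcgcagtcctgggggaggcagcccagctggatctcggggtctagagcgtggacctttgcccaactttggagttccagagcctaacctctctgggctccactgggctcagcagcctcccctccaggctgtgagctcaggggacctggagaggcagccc
The most accessible member, between genes with SERTAD2 as the nearest protein-coding start (chr2:64751119-64751418), resembled a CpG island, with 27 CpG in the 300 bases shown against 4 in the ZMIZ1 sequence:
SERTAD2, highest count: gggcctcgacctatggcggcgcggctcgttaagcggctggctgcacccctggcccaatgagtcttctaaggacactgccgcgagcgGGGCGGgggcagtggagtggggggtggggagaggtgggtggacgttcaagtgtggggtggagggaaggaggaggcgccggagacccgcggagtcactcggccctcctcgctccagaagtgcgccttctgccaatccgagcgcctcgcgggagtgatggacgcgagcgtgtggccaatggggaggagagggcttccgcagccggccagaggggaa

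Of the members, 2728 (53.3%) lay between genes, 1830 (35.8%) in introns of protein-coding genes, 404 (7.90%) only within a long non-coding gene and 152 (2.97%) over untranslated exons of protein-coding genes. Between genes here means outside protein-coding and long non-coding genes, so that genes of other types can lie there. The median distance of members to the nearest start was 13.8 kb. They were concentrated near chromosome ends: 33.4% of the 4863 tested members lay within 5 Mb of one, against 6.69% of the 97558 other distal non-coding peaks tested and 19.4% of the 15315 tested GC-rich peaks within 3 kb of a start, called GC-rich promoter peaks here. They made up 14.9% of the distal peaks of chromosome 19 and 14.8% of those of chromosome 22, but 2.3% of those of chromosome 3.

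In all, the counts in peaks summed to between 26910189 and 45645294 per library, and libraries of a condition differed by more than sampling noise. The HMGB2OE label was checked at the coding exons of HMGB2, where a peak with 288 coding bases had 50, 25 and 21.1 normalized counts in empty vector libraries and 102, 101 and 92.3 in HMGB2OE libraries; reads from the introduced copy and from the gene cannot be told apart there. Normalized counts are counts scaled to the mean effective library size. Among lineage markers, promoter peaks of MITF (1295 normalized counts on average), SOX10 (862), AXL (1644) and the pigmentation gene PMEL (295) were accessible in all libraries, whereas TYR, TYRP1, MLANA and DCT had no tested promoter peak. Of the markers of other cells, CD3E, EPCAM and KRT18 had a promoter peak, with means of 217 to 248, and CD3D, PTPRC, CDH1, ALB and APOA2 had none.

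Accessibility of the GC-rich distal peaks changed at few sites and mostly upwards. With edgeR's quasi-likelihood test and Benjamini–Hochberg adjustment over all peaks, 89 of the 4863 tested members were called higher in HMGB2OE cells and 24 were called lower, where a call needed an adjusted p under 0.05 and a change of 1.5-fold or more. The share called higher, 1.83%, was close to the 1.87% of all 150117 tested peaks. The share called lower, 0.494%, was below the 1.44% of all tested peaks. Of GC-rich promoter peaks, 63 were called higher (0.411%) and 20 lower (0.131%). Of other distal peaks, 2226 were higher (2.28%) and 1707 lower (1.75%), and those of 55 to 60% GC had 219 higher and 38 lower. A surplus of higher calls was thus not particular to the members. The remaining 251 members did not pass the filter on low counts, and none of them had over 27 counts in any library. Without HMGB2OE replicate 3 the calls were 37 higher and 17 lower, without empty vector replicate 2 they were 51 and 18, without HMGB2OE replicate 1 they were 62 and 13, and without empty vector replicate 1 they were 71 and 16. By the DESeq2 test 66 members were higher and 15 lower.

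The changes were small over the members as a whole. The median log2 fold change was 0.03, and the quartiles of the members lay at −0.12 and 0.20. It was 0.02 for the other distal peaks, −0.06 for GC-rich promoter peaks and −0.0049 for all tested peaks. All 3 HMGB2OE libraries lay above all 3 empty vector libraries in 625 members (12.9%), against 12.6% of all tested peaks, and below them in 431 (8.86%), against 12.5%. The median was −0.0032 without HMGB2OE replicate 3 and 0.0053 without empty vector replicate 2, so its sign turned without HMGB2OE replicate 3.

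The balance of calls moved with GC content. Among members with 60 to 62% GC, 44 of 1528 rose and 6 fell by the call rule, at a median log2 fold change of 0.07. At 62 to 65% GC it was 0.05, with 31 higher and 7 lower of 1518. At 65 to 70% it was 0.01, with 11 and 7 of 1172. At 70 to 75% it was −0.04, with 2 and 3 of 406, and in the 239 members of 75% or more it was −0.10, with 1 and 1. Among the 1817 members of at least 65% GC, calls were therefore split nearly evenly, 14 higher and 11 lower, and the median was −0.01. On either side of the rule's limit the values were alike: the 1108 distal peaks of 59 to 60% GC had a median of 0.08 with 25 higher and 2 lower, and the 811 members of 60 to 61% GC had one of 0.09 with 19 higher and 5 lower.

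The members lay on the falling side of an arch across the distal peaks. From peaks of under 30% GC to those of 55 to 60%, the median log2 fold change went from −0.20 to 0.08 and the share called higher from 0.267% to 3%, while the share called lower went from 5.87% to 0.521%. The share called higher was largest at 50 to 55% GC, at 3.33%, so its turn lay below the 60% limit. Above 60% GC it declined further, and the share called lower stayed at or under 0.739%. The curve differed between libraries of a condition as well. At 60 to 65% GC the median deviation from the mean of the 6 libraries was −0.05, −0.06 and 0.03 in empty vector replicates 1, 2 and 3, and 0.02, −0.02 and 0.12 in HMGB2OE replicates 1, 2 and 3. HMGB2OE replicate 3 was thus the highest there, and HMGB2OE replicates 1 and 2 both lay within the range of the empty vector libraries. The part of these GC curves in the calls of single members was not tested beyond the fits with GC-content offsets. Those fits called 91 members higher and 21 lower.

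**Figure D1:**
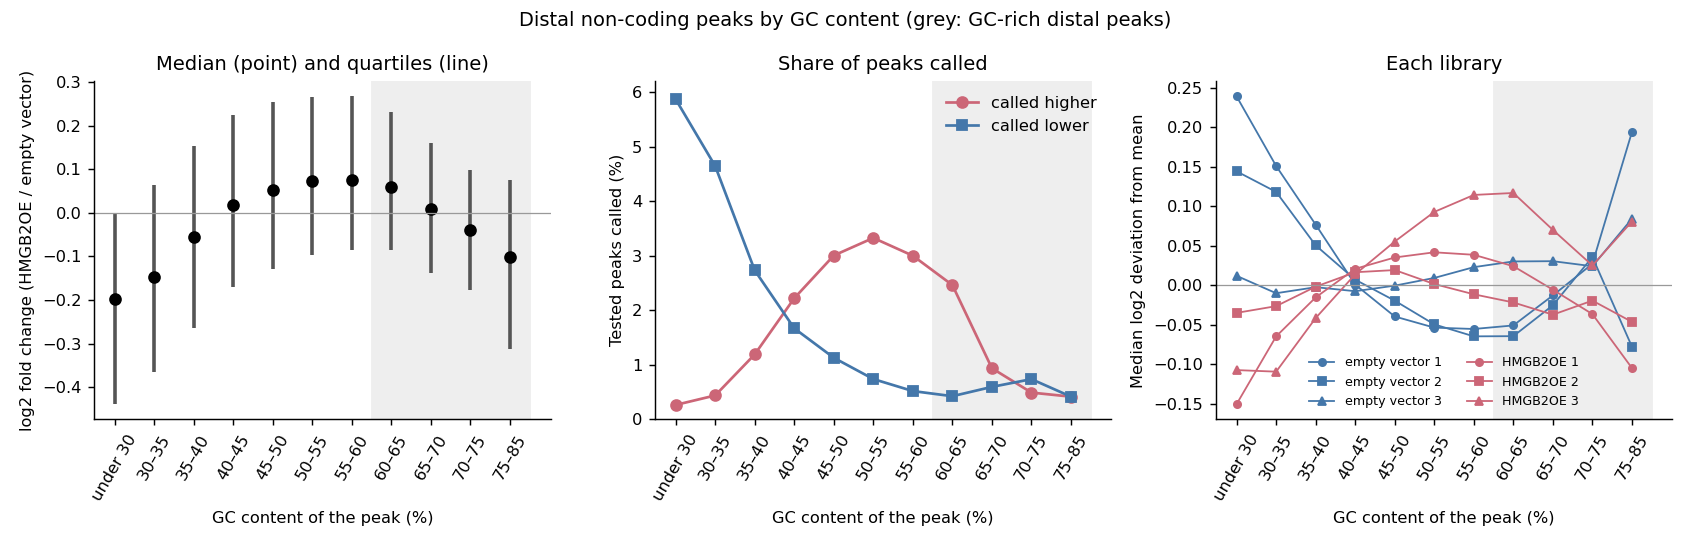
Distal non-coding peaks grouped by GC content (x axis, %), with members shaded grey. Left, the log2 fold change of HMGB2OE against empty vector (point, median; line, quartiles), which falls from 0.06 at 60 to 65% GC to −0.10 at 75 to 85%; middle, the percent of tested peaks called higher (red) or lower (blue); right, each library's median log2 deviation from the mean of all 6 libraries, in which HMGB2OE replicate 3 reaches 0.12 at 60 to 65% GC.

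Members also differed by their content of CpG. CpG observed over expected is the number of CpG divided by the number that the C and G counts of a peak would give by chance. The 3 sequence classes, chosen after values had been seen, were compared as a description. Repeated members, of which there were 1006, had at least 10% of their 12-base words repeated inside the peak or at least 50% of sampled 31-base words present more than once in the genome. The others were CpG-dense (ratio of at least 0.6, 991 members) or CpG-sparse (2866 members).

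CpG-sparse members, 2866 of the 4863 tested, held most of the calls, with 79 higher (2.76%) and 11 lower (0.384%). Their median log2 fold change was 0.07. Of CpG-sparse other distal peaks, 2.46% were called higher and 1.80% lower, and of CpG-sparse GC-rich promoter peaks 1.08% and 0.209%. CpG-dense members had 3 higher and 3 lower and a median of −0.04, although their median normalized count, 271, was above the 141 of CpG-sparse members. Repeated members had 7 higher and 10 lower, a median of −0.02 and a median count of 45.5. All of the 251 members under the count filter were repeated sequence. At 65% GC or more, the 600 CpG-sparse members kept a median of 0.06, with 10 higher and 5 lower, and the 665 CpG-dense members had one of −0.03, with 1 higher and 2 lower. At 60 to 65% GC the medians were 0.08 in 2266 CpG-sparse and −0.04 in 326 CpG-dense members. The split by CpG was thus present at both GC levels.

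The median of CpG-dense peaks was below that of CpG-sparse peaks in the other sets of peaks as well. Among GC-rich promoter peaks, 79.7% of which had a CpG ratio of at least 0.6, the median was −0.07 in the CpG-dense and 0.04 in the CpG-sparse. Among other distal peaks it was −0.05 and 0.02, and repeated peaks had the lowest median there, −0.07. By library, the median deviation of CpG-dense members was 0.0086, 0.04 and 0.01 in empty vector libraries and −0.03, −0.01 and −0.01 in HMGB2OE libraries, without overlap. That of CpG-sparse members was −0.06, −0.08 and 0.03 against 0.03, −0.03 and 0.13, and these overlapped.

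**Figure D2:**
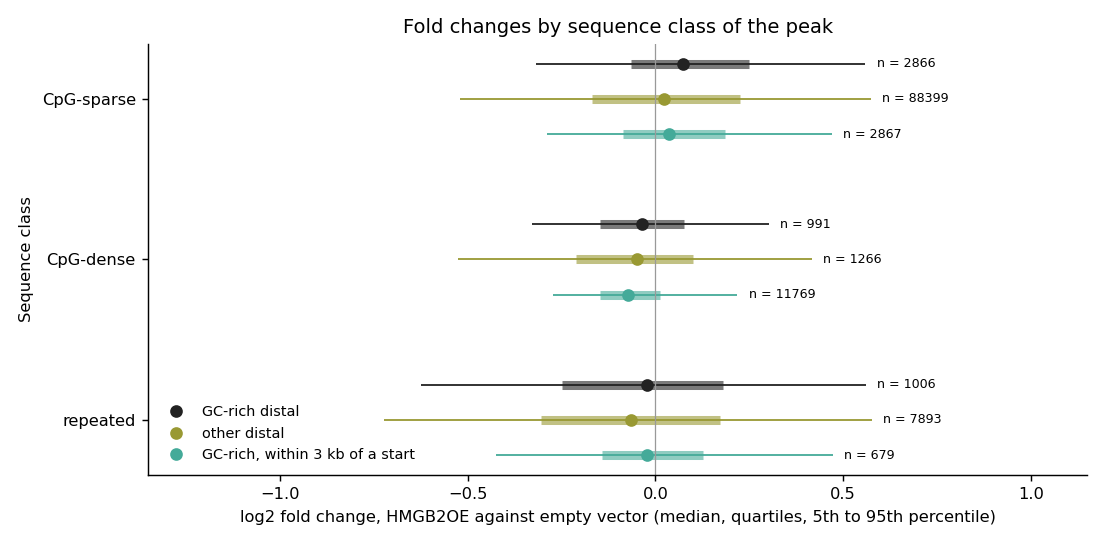
log2 fold changes of HMGB2OE against empty vector (x axis) by sequence class (y axis) in GC-rich distal peaks (black), other distal peaks (olive) and GC-rich promoter peaks (green). Points are medians, thick lines quartiles and thin lines the 5th to 95th percentiles of peaks; CpG-sparse members are centred at 0.07 and CpG-dense members at −0.04, and the distributions overlap.

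The largest called changes with no overlap between the conditions were mostly at peaks of modest depth. The top rise lay within an intron of ZMIZ1 (ENSG00000108175.19), a transcriptional coactivator, on chromosome 10 from 79266579 to 79267080 and 80.6 kb from the nearest start. Its normalized counts were 55.6, 37.9 and 52.7 in empty vector libraries and 135, 112 and 152 in HMGB2OE libraries, means of 48.7 ± 9.51 and 133 ± 20.2 (SD, n = 3). The lowest HMGB2OE library was far above the highest empty vector library. The log2 fold change was 1.47 (standard error 0.20, the error given with each fold change below, and edgeR adjusted p = 3.41e-05), and it stayed between 1.29 and 1.58 with any library left out.

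The next rise covered an untranslated exon of FAIM2 (ENSG00000135472.9), an inhibitor of Fas-mediated cell death, on chromosome 12 from 49869136 to 49869637. It had 87.6, 62.8 and 116 counts against 196, 172 and 247 (log2 fold change 1.22 with an error of 0.18, edgeR adjusted p = 9.06e-05). The intronic peak of EMILIN2, a glycoprotein of the extracellular matrix, had 32, 18.1 and 21.1 against 57.8, 45.9 and 49.5 (1.14 with an error of 0.30, edgeR adjusted p = 0.0201). It was the only CpG-dense peak among these rises, and 45.2% of its sampled words were present more than once in the genome. Its adjusted p was 0.106 without empty vector replicate 2, 0.0601 without empty vector replicate 3 and 0.114 without HMGB2OE replicate 1.

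The peak with JARID2, an accessory subunit of Polycomb repressive complex 2, as the nearest protein-coding start lay in a long non-coding gene, 441 kb from that start. It had 54.2, 34.4 and 36.3 against 77.4, 78.4 and 116 counts (log2 fold change 1.13 with an error of 0.23, edgeR adjusted p = 0.0032) and kept its call with each library left out. In an intron of TAB1, an activator of the kinase TAK1, counts of 19.5, 15.5 and 42.1 stood against 61.2, 51.7 and 48.4 (1.09 with an error of 0.32, edgeR adjusted p = 0.0351). This call was the least stable of the rises. It was retained only without empty vector replicate 3, and the adjusted p lay between 0.0576 and 0.195 without any other library, the log2 value without empty vector replicate 2 being 0.78. DESeq2 gave an adjusted p of 0.0583.

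The falls were of similar size. At the repeated peak near PTPN12 (ENSG00000127947.16), a protein tyrosine phosphatase, counts of 54.2, 62.8 and 39.8 in empty vector libraries stood against 14.5, 20.9 and 32.6 in HMGB2OE libraries. The log2 fold change was −1.24 (error 0.32, edgeR adjusted p = 0.0166), and the adjusted p was 0.111 without empty vector replicate 2, 0.107 without HMGB2OE replicate 1 and 0.0619 without HMGB2OE replicate 2. The source of reads in such multi-copy sequence cannot be told apart from its copies elsewhere.

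In an intron of ABHD12 (ENSG00000100997.20), a lipid hydrolase, on chromosome 20 from 25328826 to 25329327, counts of 84.8, 58.5 and 41.0 fell to 25.5, 31.7 and 28.1 (log2 fold change −1.09 with an error of 0.29, edgeR adjusted p = 0.0187). The adjusted p was 0.124 without empty vector replicate 1, 0.0836 without HMGB2OE replicate 1 and 0.0501 without HMGB2OE replicate 3. Of 41 other tested peaks within 50 kb, 8 were called lower and none higher, the most such neighbours of any named peak.

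The firmest fall was between genes with C1orf127 (ENSG00000175262.15) as the nearest start, 47.7 kb away, on chromosome 1 from 10899878 to 10900379. Its counts were 195, 194 and 214 against 92.7, 113 and 87.8, means of 201 ± 11.6 and 97.7 ± 13.1 (SD, n = 3). The empty vector libraries agree closely here, and the log2 fold change of −1.03 (error 0.15, edgeR adjusted p = 6e-05) stayed between −1.15 and −0.96 with any library left out.

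The last of the 5 falls were a repeated intergenic peak with PPP2R2D, a regulatory subunit of protein phosphatase PP2A, as the nearest protein-coding start and an intronic peak of LMF1, a lipase maturation factor. The PPP2R2D peak, 263 kb from that start, had 79.2, 86.9 and 92.4 against 35.7, 34.2 and 63.0 counts (log2 fold change −0.99, edgeR adjusted p = 0.00895). It lost its call without HMGB2OE replicate 1 (adjusted p = 0.0655) and without HMGB2OE replicate 2 (0.061). The LMF1 peak had 86.2, 90.3 and 74.9 against 24.7, 49.2 and 56.3 (−0.97, edgeR adjusted p = 0.0145), and it lost its call without empty vector replicate 2 (0.0677) and without HMGB2OE replicate 1 (0.118).

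**Figure D3:**
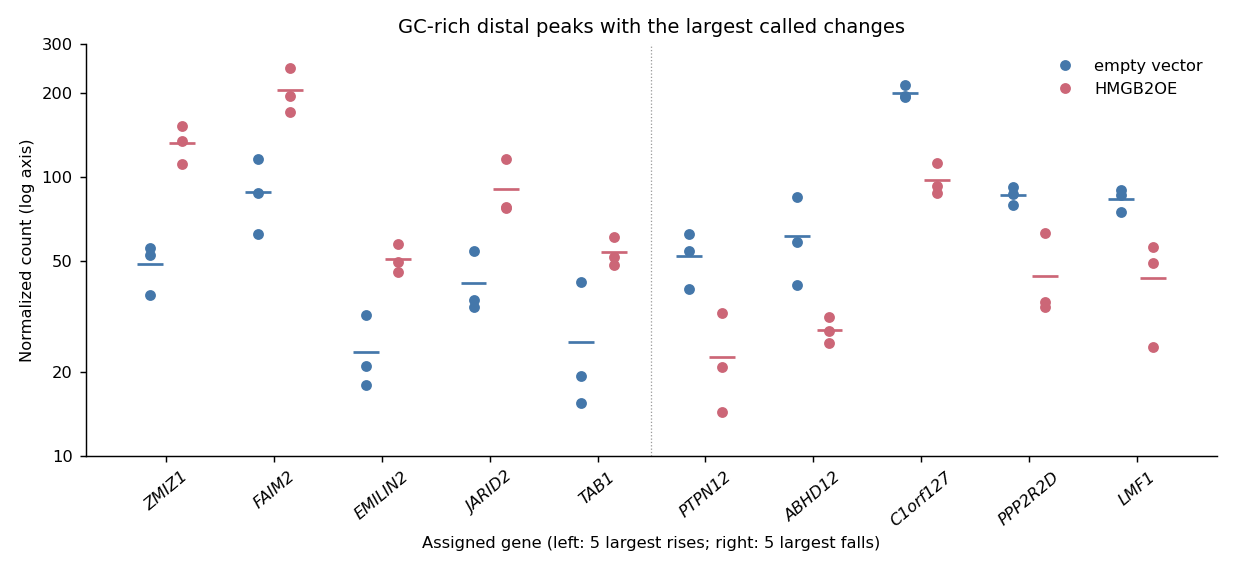
Normalized counts (y axis, log scale) of called members without overlap between conditions, the 5 that rose most and the 5 that fell most, labelled with the assigned gene. Each point is a library (blue, empty vector; red, HMGB2OE; n = 3 each) and bars are means; the widest separation is at ZMIZ1, where empty vector libraries reach 55.6 and HMGB2OE libraries start at 112.

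In all, 86 of the 89 higher and 22 of the 24 lower members had no overlap between the conditions. The calls used the same libraries, so such separation follows largely from the call rule and adds no support. Of the called members, 6 higher and 3 lower had a log2 fold change of at least 1 in size, and 19 and 7 kept their call whichever library was left out. Higher members had a median normalized count of 108 and lower members of 110, and none of the 5 members with the highest counts was among them.

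The 5 members with the highest counts were not called. The intergenic peak of SERTAD2, a transcriptional coregulator, lay 97.4 kb from that start. It had 4192, 4644 and 5234 normalized counts in empty vector libraries and 4871, 4361 and 5204 in HMGB2OE libraries (log2 fold change 0.04 with an error of 0.08, edgeR adjusted p = 0.84). The peak near GLDC, the glycine decarboxylase gene, had 3240, 3379 and 3444 against 3248, 3044 and 3150 (−0.09 with an error of 0.07, edgeR adjusted p = 0.468). Both were CpG-dense, with CpG ratios of 0.787 and 0.888. Intronic peaks of RASA3, a Ras GTPase-activating protein, NFATC2, a calcineurin-regulated transcription factor, and PEDS1, the plasmanylethanolamine desaturase, were CpG-sparse and had log2 fold changes of 0.14, 0.06 and −0.04 at means over both conditions of 3219, 3055 and 3013 counts. Libraries of the conditions overlapped at all 5.

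The 3 members with the highest GC content were repeated sequence at low counts. Peaks near SRSF10 (83.3% GC), in an intron of ARHGAP21 (83.3%) and in an intron of PJA2 (83.1%) held 17, 17 and 16 copies of the SP and KLF word, and all of their sampled 31-base words occurred more than once in the genome. Their normalized counts were 13.1 ± 7.36, 16.1 ± 8.91 and 30.1 ± 17.2 in empty vector and 19.0 ± 3.35, 10.1 ± 1.78 and 22.8 ± 11.9 in HMGB2OE libraries (SD, n = 3). The spread between libraries was as large as the difference at each.

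Calls were spread over genes. Tested members were assigned to 2675 protein-coding genes, by the gene they lay in or the nearest protein-coding start, and 9 genes had more than 1 called member. FOXL3, a forkhead gene, had the most, with 3 of 9 members higher, all between genes on chromosome 7 from 265763 to 272779. They had 64.8 ± 3.86, 86.3 ± 9.17 and 85.7 ± 21.6 counts in empty vector and 104 ± 8.36, 145 ± 45.1 and 147 ± 50 in HMGB2OE libraries (SD, n = 3), log2 fold changes of 0.67, 0.74 and 0.78. The first lost its call in 5 of 6 leave-outs, all but that of HMGB2OE replicate 2, at adjusted p-values of 0.0503 to 0.0856. Without HMGB2OE replicate 3 the other two had log2 fold changes of 0.47 and 0.48 and adjusted p-values of 0.153 and 0.184, and without empty vector replicate 2 adjusted p-values of 0.079 and 0.131.

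Nearby, 2 intronic members of FAM20C, a kinase of the secretory pathway, rose by 0.60 and 0.97 on the log2 scale. In the first 400000 bases of chromosome 7, a window chosen after these values were seen, 5 of 14 members and 4 of 44 other tested peaks were higher and none was lower, with medians of 0.45 and 0.25. A second group lay on chromosome 10, where 2 intronic members of ZMIZ1 and 2 of ZCCHC24 were higher. The second ZMIZ1 peak, from 79246066 to 79246567, had 243, 210 and 200 counts against 362, 319 and 307 (log2 fold change 0.61, edgeR adjusted p = 0.00197). Its fold change passed under 1.5 without empty vector replicate 2 or 3 or HMGB2OE replicate 1, at log2 values of 0.53 to 0.58. The ZCCHC24 peaks had log2 fold changes of 0.66 and 0.78.

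The other genes with more than 1 call were TSNARE1, a SNARE-domain gene, PLCH2, a phospholipase C, ADAMTS2, the procollagen N-proteinase, TMEM121 and BCL11B, a zinc finger transcription factor. TSNARE1 peaks had log2 fold changes of 0.67 and 0.62 and PLCH2 peaks of 0.76 and 0.67. All 4 fell short of an adjusted p of 0.05 by DESeq2 (0.0532 to 0.0934), and without HMGB2OE replicate 3 or empty vector replicate 2 (0.113 to 0.285). Further leave-outs ended some of these calls as well. ADAMTS2 had 2 intronic peaks higher by 0.74 and 0.78. TMEM121 had 41 tested members, the second most of any gene, all assigned by the nearest start and none inside it. Of these, 1 was higher (0.88), 102 kb from its start, and 1 lower (−0.59), 33.4 kb from it. Both lay between genes, in sequence of which at least 69.7% of sampled words occurred more than once. Each of these calls was retained in 1 of 6 leave-outs. BCL11B was the only gene with 2 members lower, both between genes and assigned to it by its start, 205018 and 235430 bases away. They had 583 ± 41.4 and 274 ± 32.9 counts in empty vector and 359.7 ± 33.2 and 158 ± 7.76 in HMGB2OE libraries. The log2 fold changes were −0.70 and −0.80 (adjusted p = 8.11e-05 and 0.000223 from edgeR).

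Genes of 7 lists that bear on melanoma and neural crest biology had 181 tested members, of which 5 were called higher and none lower, beside 1.83% called higher of all members and 1.87% of all tested peaks. In axon guidance genes, 3 of 63 members were higher, with a median log2 fold change of 0.07 beside 0.03 for all members. Of all 1560 tested peaks of these genes, 55 were higher and 21 lower. The 3 members were near EPHB3, an ephrin receptor, and PLXNA1, a semaphorin receptor, and in an intron of SEMA4D, a semaphorin. The EPHB3 peak, on chromosome 3 from 184593558 to 184594059, had 68.1, 86.9 and 78.4 counts against 136, 113 and 137 (log2 fold change 0.71 with an error of 0.17, edgeR adjusted p = 0.0101, but 0.0602 without HMGB2OE replicate 1). The PLXNA1 and SEMA4D peaks had log2 fold changes of 0.90 and 0.66, and each kept its call in 2 of 6 leave-outs.

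In AP-1 and ATF genes, 1 of 5 members was higher, beside 8 higher and 2 lower of all their 266 tested peaks. It lay in an intron of FOSL2 (ENSG00000075426.12), which encodes an AP-1 subunit, on chromosome 2 from 28409164 to 28409665, and had 129, 112 and 164 counts against 285, 252 and 290. All HMGB2OE libraries stood well above all empty vector libraries, with a log2 fold change of 1.04 (error 0.14, edgeR adjusted p = 3.44e-05) that stayed between 0.90 and 1.20 with any library left out. None of the 11 other tested peaks within 50 kb was called.

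In Wnt pathway genes, with 17 higher and 7 lower of all 700 tested peaks, 1 of 47 members was higher. It lay in an intron of DKK3, a secreted Dickkopf family protein (0.60, called in 2 of 6 leave-outs). The Wnt member with the lowest p lay near WNT9A, with 1309, 1396 and 1584 against 1770, 1649 and 1935 counts, or 0.32 on the log2 scale at an edgeR adjusted p of 0.0172, which was under the fold limit. Its adjusted p was 0.078 without empty vector replicate 2, 0.0698 without HMGB2OE replicate 1 and 0.101 without HMGB2OE replicate 3. Neural crest (25 members), pigmentation (4), Notch (24) and kinase and melanoma driver genes (15) had no called member, with medians of 0.05, −0.07, 0.06 and 0.07. Among all their tested peaks, 34 of 696, 5 of 280, 8 of 410 and 13 of 747 were higher and 12, 2, 4 and 8 lower. For neural crest and pigmentation genes, the member with the lowest p lay 22.4 kb from the SOX8 start (log2 fold change −0.48) and 117 kb from the KIT start (0.38). For Notch and kinase genes it lay in an untranslated exon of HEYL (0.52) and in an intron of STK11 (0.48). By edgeR, the adjusted p was 0.043, 0.0425, 0.31 and 0.0135. The SOX8, KIT and STK11 peaks had no overlap between the conditions, and all 3 exceeded 0.05 without empty vector replicate 1 and without HMGB2OE replicate 3, with further exceptions at SOX8 and KIT.

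Peaks around called members were described by their own values. Within 50 kb of 87 higher members that had other tested peaks there, the median of the neighbours' median log2 fold change was 0.09, and 25 (28.7%) had a neighbour called higher. Around members not called this was 447 of 4652 (9.61%), with a median of 0.0080. Called members near each other, such as those of FOXL3 and FAM20C, share neighbours, so the 25 are not all separate places. Around 21 lower members the median was −0.04, and 4 (19.0%) had a neighbour called lower, against 5.61% around members not called. A neighbour called higher was present around 3 of these 21 (14.3%).

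As a set, the members took a share of all counts in peaks of 3.57%, 3.57% and 3.70% in empty vector libraries and 3.69%, 3.63% and 3.8% in HMGB2OE libraries. The means, 3.61 ± 0.0734 and 3.71 ± 0.0881% (SD, n = 3), differed by 0.098 percentage points (two-sided exact permutation test, p = 0.3, where 0.1 is the smallest value that 3 against 3 libraries allow). The libraries overlapped. Against other distal peaks, the median log2 count of members was higher by 0.51, 0.54 and 0.60 in empty vector and by 0.56, 0.52 and 0.63 in HMGB2OE libraries, a difference between conditions of 0.02 (exact permutation test, p = 0.6). Against GC-rich promoter peaks it was lower, at −2, −2.09 and −1.93 in empty vector and −1.89, −2.02 and −1.75 in HMGB2OE libraries, a difference of 0.12 (exact permutation test, p = 0.3). Without HMGB2OE replicate 3 the difference in share was 0.0507 percentage points and that against GC-rich promoter peaks 0.05, and the latter was 0.19 without HMGB2OE replicate 2 and 0.08 without empty vector replicate 2. That against other distal peaks turned to −0.0023 without empty vector replicate 1 and −0.01 without HMGB2OE replicate 3, and was 0.05 without empty vector replicate 3 or HMGB2OE replicate 2. At 65% GC or more the difference in share was 0.00084 percentage points. The condition means thus differed by less than or about as much as libraries of a condition differed from each other.

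**Figure D4:**
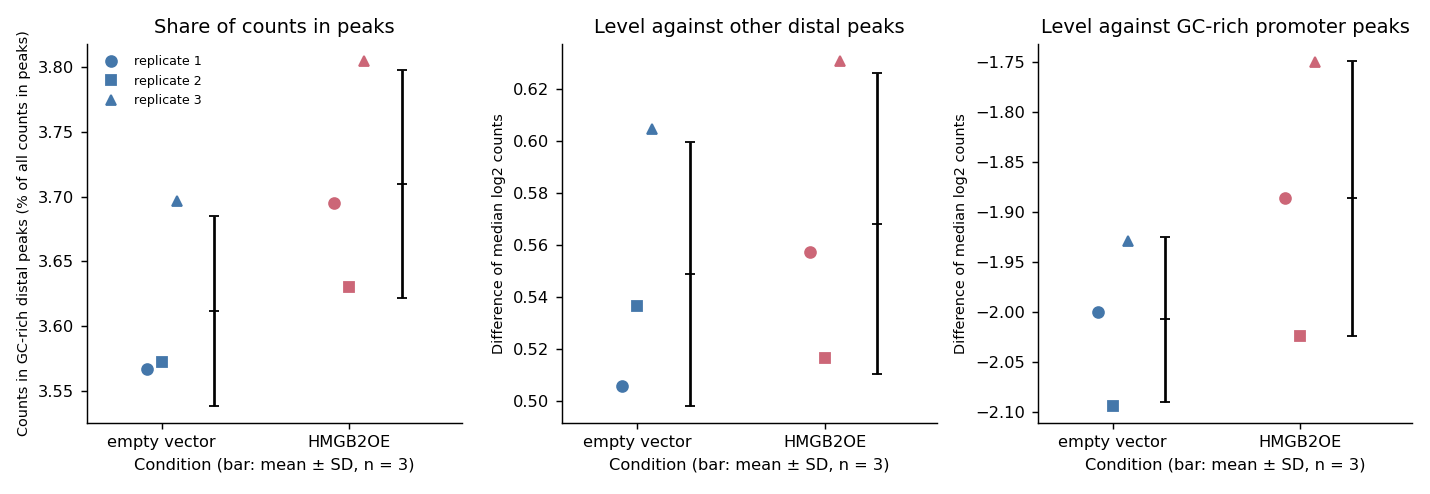
Values of GC-rich distal peaks in each library, with mean ± SD (n = 3) beside the points. Left, their percent of all counts in peaks, from 3.57 to 3.8; middle and right, their median log2 normalized count minus that of other distal peaks and of GC-rich promoter peaks. The conditions overlap in all panels, and HMGB2OE replicate 3 is highest in each.

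The letters of the members lay between those of other distal peaks and of promoters. Short words bound by transcription factor families were searched on both strands of the 502 bases. The SP and KLF word GGGCGG was in 60.1% of tested members, 9.27% of other distal peaks, 85.5% of GC-rich promoter peaks and 21% of all tested peaks. The TFAP2 word GCCNNNGGC was in 47.2%, 12.8%, 57.5% and 19.4%, and the EGR word GCGNGGGCG, which can overlap the SP and KLF word, in 8.86%, 0.325%, 24.8% and 3.40%. A G4 pattern, with 4 runs of at least 3 G or 3 C separated by 1 to 7 bases, was in 50.3%, 5.83%, 59.2% and 14.2%. The AP-1 word TGANTCA went the other way, with 18.0%, 42.8%, 8.19% and 36.4%, as did the TEAD word GGAATG with 21%, 31.2%, 16.2% and 29% and the SOX word ACAAAGG with 7.34%, 13.5%, 5.71% and 12.1%. Such shares follow base composition to a large extent.

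CTCF, the insulator protein, and REST, the repressor of neuronal genes, were exceptions to this order. The CTCF word was in 7.55% of members, 3.82% of other distal peaks and 2.02% of GC-rich promoter peaks, and the REST word in 1.75%, 0.246% and 0.607%, so that members had the highest share of both. The E-box CACGTG was in 10.7%, 5.62% and 12.8%, the ETS word CCGGAAG in 8.04%, 1.88% and 17.5%, and the NRF1 word GCGCATGCG in 1.40%, 0.0625% and 3.15%.

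**Figure D5:**
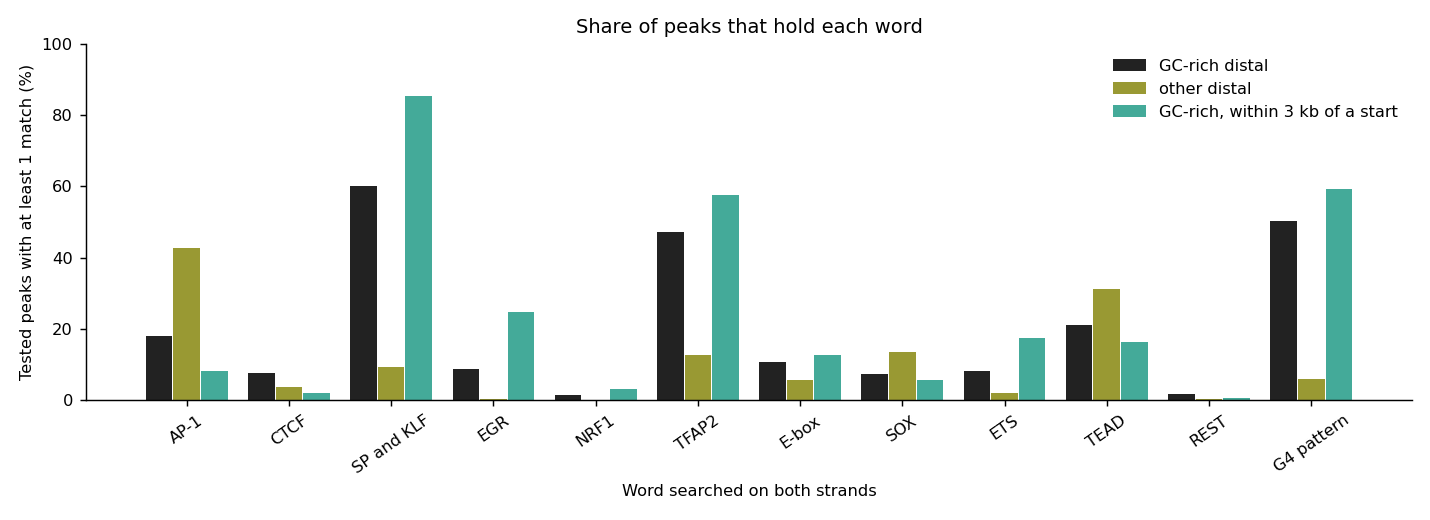
Percent of tested peaks (y axis) with at least 1 match to each word (x axis) in GC-rich distal peaks (black), other distal peaks (olive) and GC-rich promoter peaks (green). Members stand at 60.1% for the SP and KLF word, between 9.27% and 85.5%, and above both other sets for CTCF and REST.

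Words also differed with the direction of the call, as a description of few peaks. The CTCF word was in 1 of the 89 higher and none of the 24 lower members, against 366 (7.71%) of those not called, and members with it had a median log2 fold change of 0.0032 and a median count of 187. The SP and KLF word was in 42 higher (47.2%), 19 lower (79.2%) and 60.3% of uncalled members, and members with and without it had medians of 0.0031 and 0.07. The SOX word was in 12 higher (13.5%), no lower and 7.26% of uncalled members. The AP-1 word was in 19 higher (21.3%), 3 lower (12.5%) and 18.0% of uncalled members, whose counts were larger with the word: the median normalized count of members was 229 with it and 119 without it. Lower members were repeated sequence more often than higher ones, 10 of 24 (41.7%) against 7 of 89 (7.87%).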

How the data were processed

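ATAC-seq was done on A375 cells, with 3 libraries per condition. Per the submitters' processing notes and the methods of the study, reads were trimmed by the authors (Trim Galore 0.6.7, Cutadapt 4.0), mapped on hg38 by Bowtie 2 and deduplicated by Picard. Peaks came from MACS2, with published melanocyte data as the control, and were merged into an atlas after blacklist filtering. They deposited whole-number read counts per peak from featureCounts, without normalization. Handling of multi-mapping reads and a Tn5 shift are not given in the sources used here. Peak starts are printed as in the file, in which a start of 0 on 15 peaks leaves an uncertainty of 1 base.

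GC content, CpG and words were read from hg38, and positions from GENCODE v44. Counts of all 152800 peaks were analysed with edgeR 4.0.16 (R 4.3.3, TMM, filterByExpr, quasi-likelihood test, no covariate), with Benjamini–Hochberg adjustment over 150117 peaks, and DESeq2 1.42.0 as an alternative. The standard error of a log2 fold change is its size over the root of the F statistic. The procedure was also run on simulated counts, in which the changes were larger than any called here. That run does not test smaller changes. Single values per library were compared by exact permutation. TMM sets the centre of fold changes near 0, so a change shared by most peaks would not appear.

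Named peaks were, of called members without overlap between conditions, the 5 that rose most and the 5 that fell most, the 5 with the highest mean counts, the 3 with the highest GC content, the member of each gene list with the lowest p, and called members of the 5 genes with most calls (at least 2 each). Other genes with 2 calls, and called members of the lists beyond the lowest p, were named after their values were seen. Sequences were printed for those of the first 3 rises and falls outside chromosome 8 and untranslated exons in which no sampled 31-base word was repeated in the genome, and others are not reported here. The peaks, lists and words were chosen with earlier results of these data known. Alternatives were library size only, DESeq2 size factors, a loess trend, filters on low counts, GC-content offsets, the replicate number as a block, centring on 10 Mb windows, other limits on fold, GC and distance, and leaving out each library or, added after seeing the data, repeated members. No chance test was made over peaks.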

Additional observations from a re-analysis of the deposited data

How the results depend on the processing

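The count of higher members, 89, ranged from 37 to 116 with single libraries left out, and that of lower members, 24, from 13 to 24. DESeq2 called 15 lower. With a lower fold limit, 185 were higher and 53 lower, and with no fold limit 194 and 56. At 65% GC or more, 14 were higher and 11 lower. Without repeated members, an alternative chosen after seeing the data, 14 were lower. Under the remaining alternatives both counts stayed within 1.5 times. The higher share of all calls, 78.8%, was 56.0% at 65% GC or more, 86.2% with library size only and 68.5% without HMGB2OE replicate 3. The median log2 fold change of 0.03 turned to −0.014 at 65% GC or more, and lay between −0.0032 and 0.061 with single libraries left out. The difference against other distal peaks lay between −0.012 and 0.047 with single libraries left out, and was reversed without empty vector replicate 1 or HMGB2OE replicate 3. The difference in share lay between 0.0507 and 0.14 percentage points, and that against GC-rich promoter peaks between 0.052 and 0.19, with single libraries left out. Among named peaks not called, SERTAD2 lay between −0.037 and 0.12, NFATC2 between −0.021 and 0.12, PEDS1 between −0.089 and 0.023 (0.030 with a loess trend) and PJA2 between −0.78 and 0.14 on the log2 scale with single libraries left out. Where no construction is named, the cause was not tested.

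Same-numbered libraries of the conditions had correlations of −0.088, 0.191 and 0.128 between their deviations from the condition means, so the numbers were not taken as pairs, and empty vector replicate 1 correlated best with HMGB2OE replicate 3. With the replicate number as a block, 98 members were higher and 28 lower, the median was 0.03 and no named peak changed sides of the 0.05 threshold. The block left the difference in share at 0.098 percentage points (exact sign-flip permutation test, p = 0.25), that against other distal peaks at 0.02 and that against GC-rich promoter peaks at 0.12. With the block and GC-content offsets together, the counts were 101 higher and 25 lower and the median was 0.04.

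Repeated members had a median of 45.5 normalized counts against 271 in CpG-dense members. In 80.6% of them at least 50% of sampled words occurred more than once in the genome, and there reads from other copies cannot be told apart.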
